A study of Mus musculus with 12 samples.

Results

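The 9 complement genes described here are C1qa (ENSMUSG00000036887), C1qb (ENSMUSG00000036905), C1qc (ENSMUSG00000036896), C1ra (ENSMUSG00000055172), C2 (ENSMUSG00000024371), C4b (ENSMUSG00000073418), C3 (ENSMUSG00000024164), Serping1 (ENSMUSG00000023224) and C5ar1 (ENSMUSG00000049130). They were chosen by name, as the rows of the deposited count table whose Ensembl identifier carries one of these symbols, and 9 of 9 were found among its 78334 rows. The table holds 12 poly(A)-selected RNA-seq libraries of hypothalamus from male C57BL/6 mice, in 5 groups. The C group (3 libraries) was kept on standard chow and gavaged with vehicle. The Ob group (3 libraries) received a high-fat diet (HFD, 60% of kcal from fat) and vehicle. The Ob + RSV group (3 libraries) received the HFD and 2.25 mg/kg of resveratrol (RSV), a plant polyphenol. The Ob + EAE group (2 libraries) received the HFD and 200 mg/kg of aged garlic extract, and the Ob + CUR group (1 library) the HFD and 50 mg/kg of curcumin, the yellow pigment of turmeric. Mice entered the study at 8 weeks of age, and every group was gavaged daily for 28 days from 16 weeks of age. The labels give 8 weeks of HFD in total and start the gavage at week 8 of the diet. The study's text places the resveratrol gavage within the last weeks of the HFD and describes the C, Ob and Ob + RSV libraries as biological replicates. It does not cover the Ob + EAE and Ob + CUR groups, whose libraries the labels do not tie to single mice, so the spread between the Ob + EAE libraries may be technical.

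Complement is a protein cascade that tags microbes, debris and, in the brain, synapses. In the classical pathway the recognition molecule C1q, built of A, B and C chains (C1qa, C1qb, C1qc), binds a target. The protease C1r (C1ra) is activated first and then C1s. C1s cuts C4 (C4b) and C2 to form a C3 convertase. C3 is then cleaved into the opsonin C3b and the small peptide C3a, and the cascade leads on to C5a, which acts through the receptor C5ar1. Serping1 encodes C1 inhibitor, the serpin that blocks C1r and C1s. In brain tissue C1q transcripts are known mainly from microglia and perivascular macrophages, while C4b, C3 and Serping1 are also made by astrocytes and by cells of the vessel wall and meninges.

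Promoter sequences are shown for a pair of C1q chains, subunits of one molecule, and for C1ra beside its near-identical neighbour C1rb. They describe the genes, and their relation to the values that follow was not tested. RefSeq entries (GRCm38.p6) of the 250 bases before the gene start were matched for 5 of the 9 genes (C1qb, C1qc, C1ra, C3 and C5ar1). The C1qb window lies at chr4:136886201-136886450 and that of C1qc at chr4:136892915-136893164, both on the minus strand. Capitals mark the letters GAGGAA, a core that ETS factors of the PU.1 type can bind, searched on both strands. They begin 30 bases before the start of C1qb on the sense strand and 193 bases before that of C1qc on the opposite strand, where they read TTCCTC.
C1qb: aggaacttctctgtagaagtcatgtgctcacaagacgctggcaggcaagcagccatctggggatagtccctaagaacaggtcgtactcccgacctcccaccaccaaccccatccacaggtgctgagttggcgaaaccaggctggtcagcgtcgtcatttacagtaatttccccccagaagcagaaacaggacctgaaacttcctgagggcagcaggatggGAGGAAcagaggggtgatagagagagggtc
C1qc: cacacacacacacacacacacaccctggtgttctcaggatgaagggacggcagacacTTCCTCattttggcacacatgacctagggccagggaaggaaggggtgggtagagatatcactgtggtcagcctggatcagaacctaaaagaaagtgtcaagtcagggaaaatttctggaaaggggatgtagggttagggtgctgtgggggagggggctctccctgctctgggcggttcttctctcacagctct
The same letters were found in 23.3% of the 32851 promoters in the table, and not in the windows of C1ra, C3 or C5ar1. None of the 5 windows held TTCNNNGAA, a STAT-type match searched likewise and found in 7.02% of all promoters. The window of the neighbour C1rb, searched as well, held 1 such match, beginning 119 bases before its start. A match is a description of these letters, not of binding.
The windows of C1ra (chr6:124512371-124512620) and of C1rb (chr6:124570180-124570429), both on the plus strand, are shown with their longest common run of 34 bases in capitals.
C1ra: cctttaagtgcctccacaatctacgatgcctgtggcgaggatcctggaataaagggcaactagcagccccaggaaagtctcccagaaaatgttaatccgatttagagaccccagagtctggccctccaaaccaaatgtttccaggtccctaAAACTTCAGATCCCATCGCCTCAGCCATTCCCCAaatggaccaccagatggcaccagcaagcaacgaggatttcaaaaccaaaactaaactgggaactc
C1rb: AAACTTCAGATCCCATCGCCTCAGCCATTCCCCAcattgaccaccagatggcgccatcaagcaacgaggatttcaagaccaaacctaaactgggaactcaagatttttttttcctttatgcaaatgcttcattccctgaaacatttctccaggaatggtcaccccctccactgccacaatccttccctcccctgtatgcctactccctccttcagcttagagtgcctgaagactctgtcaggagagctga
The run lies at -99 to -66 in C1ra and at -250 to -217 in C1rb. Within the transcripts, 26.3% of the 150-base windows of C1ra also occur in C1rb, 48.3% of those of C2 in the annotated gene Gm20547, and 8.26% of those of C4b in C4a. No window of the other 6 genes was shared. Over the 12 libraries C1rb held 25 reads against 129 of C1ra, C4a held 919 against 12832 of C4b, and Gm20547 held 0.

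Libraries held 15655156 to 26284661 counted reads and detected 24450 to 38081 genes. C replicate 2, Ob replicate 1 and Ob + RSV replicate 2 detected the fewest (25979, 26123 and 24450), and the Ob + EAE and Ob + CUR libraries the most (37165 to 38081). In Ob + RSV replicate 2, 7.30% of the detected genes had under 10 reads, against 20.3% to 43.5% in the other libraries. All 14 microglial markers examined had reads in every library. Of the 14 hypothalamic neuron markers, Kiss1 had 0 reads throughout, and their summed level was 1143 to 3421 counts per 1000000 counted reads (CPM) in the first 4 groups but 395 CPM in the Ob + CUR library.

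No complement gene was called in any of the 5 comparisons, where a call needed an adjusted p under 0.05 and a log2 fold change (log2FC) of at least 1 either way in edgeR's quasi-likelihood fit across all genes. Among all genes tested, 0% were called in the 3 comparisons of C, Ob and Ob + RSV, 1.84% in Ob + EAE vs. Ob and 0.0138% in Ob + EAE vs. C. DESeq2 called 0 of the 9 genes in each comparison as well. At an unadjusted p under 0.05, edgeR gave 1 of the 9 in Ob vs. C (C4b), 3 in Ob + EAE vs. Ob (C1qa, C1qb and C4b) and 0 in the other 3 comparisons. Of all genes, 2.75% did so in Ob vs. C, 13.4% in Ob + EAE vs. Ob and 4.35% in Ob + EAE vs. C. For Ob + RSV the shares were 3.16% against Ob and 2.87% against C. At the same unadjusted threshold DESeq2 gave C1ra in Ob vs. C, C1qa, C1qb and C4b in Ob + EAE vs. Ob, and C1ra for Ob + RSV against Ob. The log2FC was above 0 for 7 of the 9 in Ob vs. C (48.8% of all genes), for 0 of the 9 in Ob + RSV vs. Ob (49.6%), for 4 in Ob + RSV vs. C (49.2%), for 0 in Ob + EAE vs. Ob (52%) and for 1 in Ob + EAE vs. C (53%). The comparisons share the Ob and C libraries, so these counts are not independent of each other. As unscaled mean CPM, C1qb (49.28 in Ob + RSV, 49.23 in Ob) and C5ar1 (0.607 and 0.591) were not lower under RSV.

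**Figure D1:**
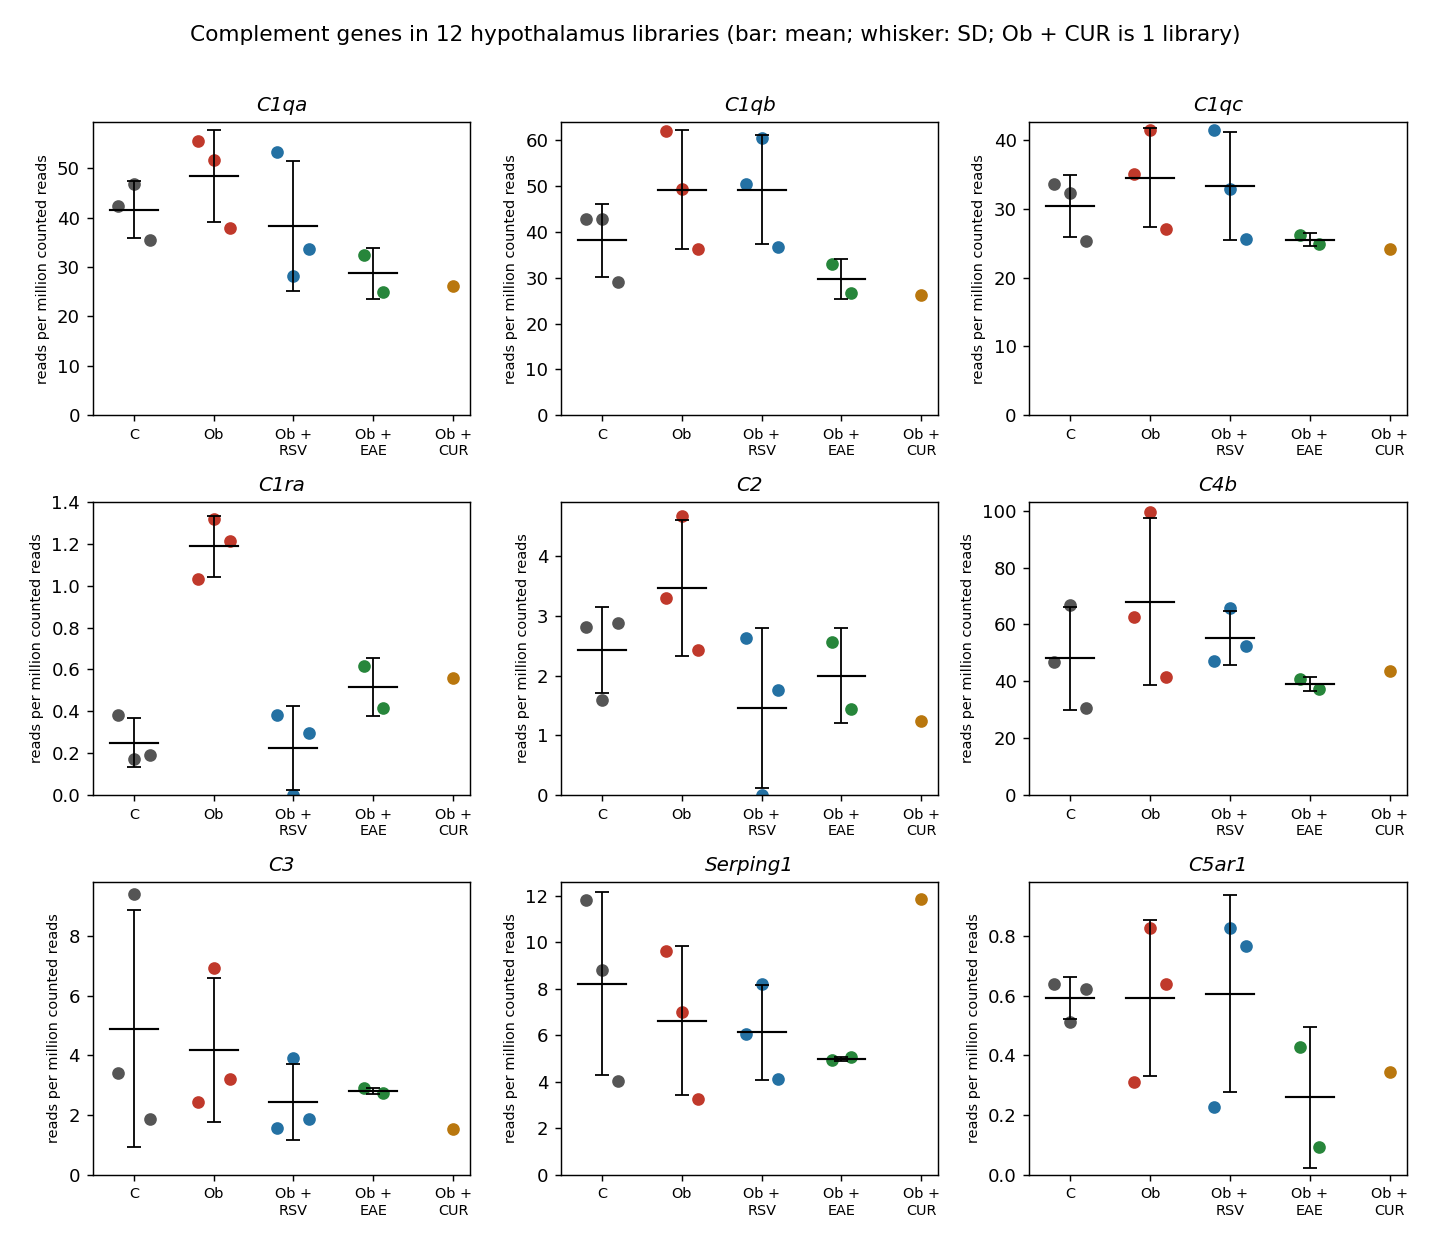
Level (CPM, counts per 1000000 counted reads, y axis from 0) of each complement gene in each of the 12 libraries, by group, with one point per library, the group mean as a bar and its SD as a whisker. C1ra was at 1.03 to 1.32 CPM in the Ob libraries and at most 0.616 CPM in all others, while for the remaining 8 genes the C, Ob and Ob + RSV libraries overlapped.

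Set per kilobase of annotated exon (all exons of a gene merged), the C1q chains stood highest among the 9. Their medians over the 12 libraries were 36.5 (C1qb), 35.2 (C1qa) and 15.4 (C1qc) CPM per kilobase. C4b followed at 8.23 and Serping1 at 2.80. C2 (0.644), C3 (0.547), C5ar1 (0.221) and C1ra (0.134) were low, and C1ra and C5ar1 rested on 129 and 124 reads over all 12 libraries. The merged exons of C1qc cover 1931 bases, but its longest protein-coding transcript only 1203 bases. Its lower value beside C1qa and C1qb, for which these lengths are the same, therefore depends on the length used. On the log2 CPM scale, with a small constant added to each CPM, the spread over libraries (SD) was smallest for C1qc (0.28). It was largest for C2 (1.43) and C1ra (1.08). Both had 0 reads in Ob + RSV replicate 2, so their SD depends on that library and on the constant.

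The 3 C1q chains, the recognition part of C1, were slightly higher on average in Ob than in C, by less than the libraries differed within a group. C1qa stood at 42.4, 46.8 and 35.5 CPM in C and at 55.5, 51.7 and 37.8 CPM in Ob. Its level was 53.2, 28.2 and 33.6 CPM in Ob + RSV. The 3 groups overlapped, with Ob replicate 3 inside the range of C and Ob + RSV replicate 1 inside that of Ob. The group means were 41.6 ± 5.73 CPM in C, 48.3 ± 9.31 CPM in Ob and 38.4 ± 13.2 CPM in Ob + RSV (SD, n = 3 each). The log2FC of C1qa was 0.27 (SE 0.25, unadjusted p = 0.283) in Ob vs. C and −0.37 (SE 0.25, unadjusted p = 0.147) in Ob + RSV vs. Ob, with an edgeR adjusted p of 1 in both.

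C1qb, the B chain, stood at 42.8, 42.9 and 29.0 CPM in C and at 62.1, 49.3 and 36.2 CPM in Ob. In Ob + RSV it stood at 50.5, 60.6 and 36.8 CPM. The highest Ob library lay above every C library, but the lowest Ob library lay among them, and the Ob + RSV range fell within that of Ob. The log2FC was 0.42 (SE 0.24, unadjusted p = 0.0984) in Ob vs. C and −0.05 (SE 0.24) in Ob + RSV vs. Ob, with an edgeR adjusted p of 1 in both. Ob + RSV vs. C gave 0.37 (SE 0.24, unadjusted p = 0.140) for C1qb.

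C1qc, the C chain, varied least, with C libraries at 33.7, 32.3 and 25.3 CPM, Ob libraries at 35.0, 41.5 and 27.1 CPM and Ob + RSV libraries at 41.4, 32.9 and 25.7 CPM. Its groups overlapped throughout, and its log2FC was 0.23 in Ob vs. C (SE 0.24). Under RSV it was −0.09 against Ob and 0.14 against C (SE 0.24 each).

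Among the ratios between the subunit genes, that of C1qa to C1qb set 1 library apart. This ratio of C1qa to C1qb reads was 0.893 to 1.22 in 11 libraries and 0.466 in Ob + RSV replicate 2, which held 614 C1qa and 1319 C1qb reads. C1qa per C1qc was 1.01 to 1.58 in those 11 libraries and 0.856 in the same replicate. C1qb per C1qc was highest there as well, at 1.84, followed by Ob replicate 1 at 1.77 and the other 10 libraries at 1.07 to 1.43. Both libraries are among the 3 with the fewest genes detected. Over the log2 CPM values of 12 libraries, Pearson's r was 0.72 between C1qa and C1qb, 0.85 between C1qa and C1qc and 0.86 between C1qb and C1qc. Without those 3 libraries it was 0.96, 0.94 and 0.95. These values describe libraries that share depth and composition and carry no test. Without the 3 libraries the C1qa log2FC in Ob + RSV vs. Ob was −0.02, against −0.37 with them.

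**Figure D2:**
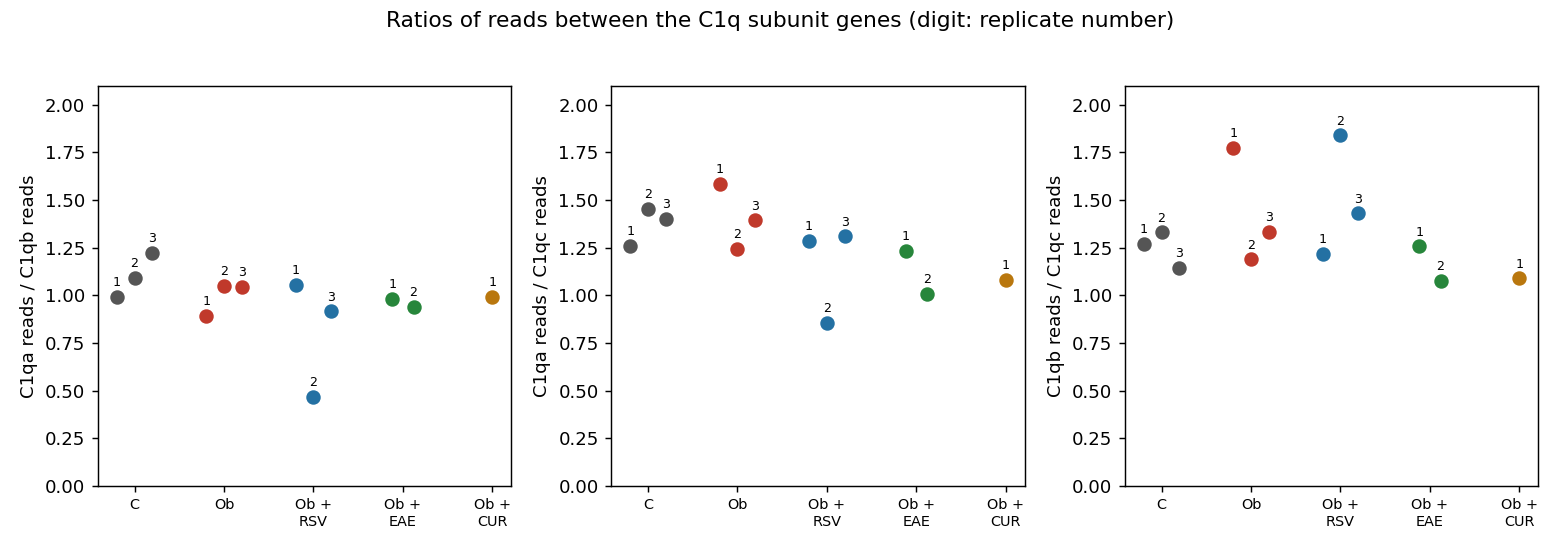
Ratios of reads between pairs of C1q subunit genes (y axes, no unit, from 0) in each of the 12 libraries by group, each point labelled with its replicate number. Ob + RSV replicate 2 lies at 0.466 for C1qa to C1qb, apart from 0.893 to 1.22 in the other 11 libraries.

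C1ra, the protease that C1q activates first, was the gene of the 9 whose Ob libraries stood apart. The C libraries held 9, 3 and 4 C1ra reads, the Ob libraries 20, 24 and 19, and the Ob + RSV libraries 10, 0 and 5. As CPM, the C libraries were at 0.383, 0.171 and 0.192, the Ob libraries at 1.03, 1.32 and 1.21, and those of Ob + RSV at 0.380, 0 and 0.294, where the count of 0 allows up to 0.138 CPM by counting error alone. The 0 was in Ob + RSV replicate 2, the library with the fewest genes detected and few genes of low count. Every Ob library lay above every C and every Ob + RSV library, and the C and Ob + RSV libraries overlapped. Of all genes tested, 3.42% were likewise higher and 4.21% lower without overlap in Ob vs. C, and 3.75% were lower and 2.94% higher in Ob + RSV vs. Ob. The log2FC of C1ra was 2.25 (SE 1.30, unadjusted p = 0.0929) in Ob vs. C and −2.38 (SE 1.30, unadjusted p = 0.0780) in Ob + RSV vs. Ob, both with an edgeR adjusted p of 1. An exact two-sided permutation test on the CPM values, run for C1ra alone, gave p = 0.1 in each. This is the smallest that 20 groupings of 3 against 3 libraries allow. It follows from the lack of overlap and adds nothing to it. DESeq2 gave an unadjusted p of 0.0387 and 0.0294 with adjusted p of 1 in both. With any 1 library left out the log2FC lay between 2.04 and 2.73 in Ob vs. C and between −3.05 and −1.79 in Ob + RSV vs. Ob, the smallest being without Ob + RSV replicate 2.

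The study reported C1ra from these same libraries as differentially expressed in both comparisons, by an adjusted p from DESeq2. Neither edgeR nor DESeq2 called C1ra here, and the source of this difference was not tested. Because the libraries are the same, the direction of C1ra here is not independent evidence. Between Ob + RSV and C the log2FC of C1ra was −0.13 (SE 1.28). No complement gene was without overlap in that comparison, where 2.05% of all genes were higher and 3.38% lower without overlap. Of the copy C1rb, C libraries held 4, 4 and 0 reads, Ob libraries 4, 3 and 0, and Ob + RSV libraries 3, 0 and 0, too few to follow the same pattern or another. Of the partner protease genes, C1s1 had 0 to 12 reads and C1s2 0 to 17 reads per library.

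C2 and C4b encode the substrates that C1s cuts to form the C3 convertase. C2 stood at 2.81, 1.59 and 2.88 CPM in the C libraries, at 3.30, 4.68 and 2.43 CPM in the Ob libraries and at 2.63, 0 and 1.76 CPM under RSV. Its groups overlapped, and the library at 0 was again Ob + RSV replicate 2, while the other 11 libraries held 28 to 85 C2 reads. The log2FC was 0.56 (SE 0.76) in Ob vs. C and −1.26 (SE 0.77, unadjusted p = 0.113) in Ob + RSV vs. Ob, where leaving out that library gave −0.66. Whether the 0 is related to the windows shared with Gm20547 was not tested.

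C4b, the most deeply counted of the 9 genes (12832 reads), stood at 46.7, 66.9 and 30.7 CPM in C and at 62.8, 99.7 and 41.6 CPM in Ob. In Ob + RSV it stood at 47.1, 65.6 and 52.6 CPM. Ob replicate 2 lay above all other libraries, and the ranges of all 3 groups overlapped. The means were 48.1 ± 18.2, 68.0 ± 29.4 and 55.1 ± 9.53 CPM in C, Ob and Ob + RSV (SD, n = 3 each). The log2FC in Ob vs. C was 0.56 (SE 0.27, unadjusted p = 0.04998, edgeR adjusted p = 1), and it was 0.16 without Ob replicate 2 and 0.85 without C replicate 2. In Ob + RSV vs. Ob it was −0.36 (SE 0.27), and 0.04 without Ob replicate 2. Its neighbour C4a stood at 7.47, 4.51 and 4.47 CPM in Ob and at 1.56, 2.80 and 3.94 CPM in Ob + RSV, lower in each of the 3 (log2FC −1.05, SE 0.48, unadjusted p = 0.0357, edgeR adjusted p = 1).

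C3, on which the pathways converge, was highest in replicate 2 of each of the 3 larger groups. The C libraries were at 3.41, 9.39 and 1.87 CPM, the Ob libraries at 2.42, 6.93 and 3.19 CPM, and the Ob + RSV libraries at 1.56, 3.91 and 1.88 CPM. The groups overlapped. The log2FC was −0.16 (SE 0.56) in Ob vs. C. Under RSV it was −0.83 (SE 0.57) against Ob and −0.99 (SE 0.57, unadjusted p = 0.0910) against C. Leaving out C replicate 2 turned the first to 0.69 and shrank the last to −0.13.

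Serping1, the inhibitor of C1r and C1s, stood at 11.8, 8.82 and 4.03 CPM in the C libraries. The Ob libraries were at 9.64, 6.99 and 3.26 CPM and those of Ob + RSV at 6.05, 8.22 and 4.12 CPM. In each of these groups replicate 3 was lowest, and the ranges overlapped. The log2FC was −0.26 (SE 0.43) in Ob vs. C, and under RSV it was −0.17 against Ob and −0.43 against C (SE 0.43 each). Leaving out C replicate 1 turned the value in Ob vs. C to 0.14.

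C5ar1, the receptor for C5a on myeloid cells, had 15, 9 and 13 reads in the C libraries, 6, 15 and 10 in those of Ob and 6, 18 and 13 under RSV. The group means were 0.591, 0.591 and 0.607 CPM. Its log2FC was 0.03 in Ob vs. C, and under RSV −0.01 against Ob and 0.02 against C, each with an SE of 1.14, so that a 2-fold difference (log2FC of 1) would not have been detectable at this depth.

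**Figure D3:**
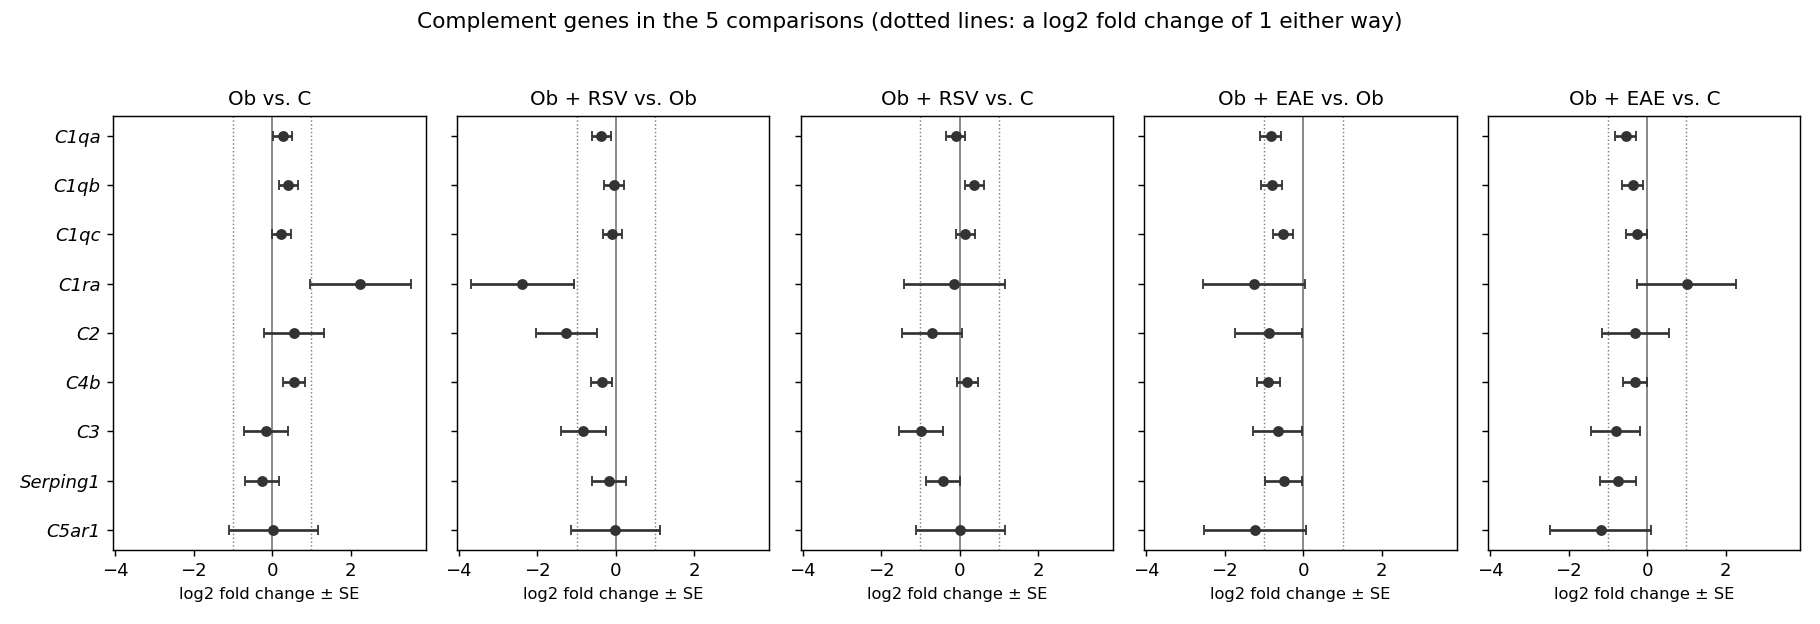
Log2FC ± SE (x axis) of the 9 complement genes (rows) in the 5 comparisons (panels), from edgeR's quasi-likelihood fits. Against Ob, all 9 values of Ob + RSV and of Ob + EAE lie below 0. Those of C1qb, C1qc, Serping1 and C5ar1 in Ob + RSV do so by less than their SE. None of the 45 values passed the call threshold.

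Mean C1q and C4b levels were lowest in Ob + EAE among the replicated groups. C1qa stood at 32.3 and 25.0 CPM in Ob + EAE, below every Ob library (37.8 to 55.5 CPM). C1qb stood at 32.9 and 26.7 CPM, C1qc at 26.2 and 24.8 CPM, and C4b at 40.8 and 37.3 CPM, each again below every Ob library. C1ra had 13 and 9 reads (0.616 and 0.418 CPM), also below every Ob library. In all, 5 of the 9 genes were lower without overlap and 0 higher, where 13.7% of all genes were lower and 24.9% higher. In bulk tissue, fewer cells of a type and less RNA per cell cannot be told apart.

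The log2FC in Ob + EAE vs. Ob was −0.83 (SE 0.28, unadjusted p = 0.00526, adjusted p = 0.111) for C1qa. It was −0.81 (SE 0.27, adjusted p = 0.114) for C1qb and −0.89 (SE 0.30, adjusted p = 0.125) for C4b, all in edgeR. C1qc gave −0.52 (SE 0.26, edgeR adjusted p = 0.405). C1ra (−1.26, SE 1.30), C2 (−0.88), C3 (−0.65), Serping1 (−0.50) and C5ar1 (−1.23, SE 1.30) were imprecise. None passed at an adjusted p of 0.05 in this fit. DESeq2 gave an adjusted p of 0.0490 for C1qa with a log2FC of −0.84. Without Ob replicate 3 the edgeR adjusted p was 0.0387 for C1qa, 0.0284 for C1qb and 0.0114 for C4b, and C4b was then called (log2FC −1.16). Without Ob replicate 2 the C4b log2FC was −0.45, and without Ob replicate 1 that of C1qb was −0.54. With the 3 libraries of fewest genes left out, the values were −0.68 (C1qa), −0.56 (C1qb) and −0.91 (C4b), with edgeR adjusted p of 0.451, 0.546 and 0.386.

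The 14 microglial markers summed to 287 to 304 CPM in Ob + EAE, 200 to 290 CPM in Ob and 276 to 324 CPM in C. Of these, 6 were higher and 8 lower in Ob + EAE vs. Ob, with a median log2FC of −0.02. One of the 14 was called, Aif1, which encodes the microglial protein Iba1, and it was lower (log2FC −1.92, SE 0.50, edgeR adjusted p = 0.0356). Tyrobp was at −0.88 (unadjusted p = 0.0148) and Sall1 at 0.90 (unadjusted p = 0.00633), and neither passed after adjustment (edgeR adjusted p of 0.195 and 0.123). Perivascular macrophage markers summed to 17.0 to 17.8 CPM in Ob + EAE and 11.8 to 14.9 CPM in Ob, with 7 of 8 genes higher. Choroid plexus markers summed to 80.0 to 92.3 CPM in Ob + EAE and 30.1 to 66.9 CPM in Ob, with 6 of 8 higher. Hypothalamic neuron markers were lower for 12 of 13 genes tested (median log2FC −1.004). Of these, 2 were called, Avp (log2FC −1.84, edgeR adjusted p = 0.00948) and Cartpt (log2FC −1.65, edgeR adjusted p = 0.0429). The Ob + EAE libraries also detected more genes than any Ob library. The part of these differences in the complement values was not tested, and a library batch, for which the labels give nothing, cannot be told apart from the treatment.

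Against C, the Ob + EAE libraries overlapped for 6 of the 9 genes. C1qa (log2FC −0.55, SE 0.27, unadjusted p = 0.0560) and C5ar1 (9 and 2 reads, log2FC −1.18, SE 1.30) were lower without overlap, where 10% of all genes were. C1ra was higher without overlap (log2FC 1.01, SE 1.27), where 20.4% of all genes were. The edgeR adjusted p was 1 for each.

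The single Ob + CUR library stood at 26.1 CPM for C1qa, 26.3 for C1qb and 24.1 for C1qc, each below every C, Ob and Ob + RSV library. C4b stood at 43.6 CPM, C2 at 1.25 CPM, C3 at 1.55 CPM and C1ra at 0.559 CPM (13 reads). Serping1 stood at 11.9 CPM, the highest of the 12 libraries next to C replicate 1 at 11.8 CPM. With 1 library there is no replicate check, and no comparison was made.

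The wider complement pathway was followed on a list of 59 genes that includes the 9. Of these, 52 were tested in the fit of C, Ob and Ob + RSV and 53 in the fit of all libraries. Of the rest, C6, C9 and Mbl1 had 0 reads, and Fcnb, Mbl2 and Vsig4 had 3 or fewer over the 12 libraries. In Ob vs. C 30 were higher and 22 lower, with a median log2FC of 0.06 against −0.0034 over all genes. In Ob + RSV vs. Ob 15 were higher and 37 lower (median −0.21 against 0 over all genes), and in Ob + RSV vs. C 20 and 32. Without the 9 complement genes, 23 were higher and 20 lower in Ob vs. C (median 0.02). For Ob + RSV these counts were 15 and 28 against Ob (median −0.21) and 16 and 27 against C (median −0.15). By edgeR 0 of the 52 were called in each of these 3 comparisons, and 2, 3 and 1 had an unadjusted p under 0.05.

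Within the list, 9 of 10 genes of recognition and classical pathway proteases were higher in Ob vs. C, where 48.8% of all genes were. In Ob + RSV vs. Ob 9 of 10 were lower. The median log2FC was 0.48 and −0.42, again from comparisons that share the Ob libraries. These 10 include C1qa, C1qb, C1qc, C1ra, C2 and C4b, already counted among the 9, and C1rb, C1s1 and C1s2, which had few reads. All 6 tested genes of the C3 and terminal group had a log2FC below 0 in Ob + RSV vs. Ob, where 49.6% of all genes were above 0. Among them, C8b was at most 0.055 CPM in Ob and 0 under RSV. Mean C8g was 4.04 CPM in Ob and 4.11 CPM under RSV, so not lower before TMM scaling. Hc, which encodes C5, the precursor of the ligand of C5ar1, held 28, 28 and 84 reads in the C libraries, 0, 26 and 28 in those of Ob and 0, 0 and 4 under RSV. Its log2FC was −3.85 (SE 1.31, unadjusted p = 0.00626) under RSV against Ob and −4.90 (SE 1.34, unadjusted p = 0.000930) against C, with an edgeR adjusted p of 1 in both. The Ob + RSV and C libraries of Hc did not overlap, but Ob replicate 1 was at 0 as well. Fcna, a ficolin of the lectin pathway, held 9, 0 and 0 reads in the C libraries, 0 reads in all 3 Ob libraries and 9, 28 and 7 reads under RSV. C8a, part of the membrane attack complex, had 20 reads in Ob replicate 1 and at most 1 in every other library.

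In Ob + EAE vs. Ob, 22 of the 53 tested genes were higher and 31 lower. Without the 9 complement genes, 22 were higher and 22 lower, with a median log2FC of −0.0036 against 0.046 over all genes. By edgeR 1 of the 53 was called, a share near the 1.84% called among all genes. This was Csmd3, a large neuronal membrane protein with complement-control domains, at 48.3 and 60.0 CPM in Ob + EAE against 14.5, 25.0 and 33.9 CPM in Ob (log2FC 1.09, SE 0.29, edgeR adjusted p = 0.0401). Its relative Csmd1 (log2FC 0.93, adjusted p = 0.0824) and Sez6l, another neuronal protein with such domains (log2FC 0.70, adjusted p = 0.0802), were higher without overlap, as were 24.9% of all genes, but did not pass in edgeR. Cd59a, which blocks the membrane attack complex, was lower without overlap, as were 13.7% of all genes (log2FC −0.72, edgeR adjusted p = 0.145). Of the inhibitors and regulators 11 were higher and 8 lower. Of the recognition and classical pathway genes, which include C1qa, C1qb, C1qc, C1ra, C2 and C4b, 1 was higher and 9 lower. Cd93, once proposed as a C1q receptor, stood at 8.57 and 9.89 CPM in Ob + EAE and 2.40 to 3.66 CPM in C (log2FC 1.58, SE 0.44, unadjusted p = 0.00129, edgeR adjusted p = 0.535).

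**Figure D4:**
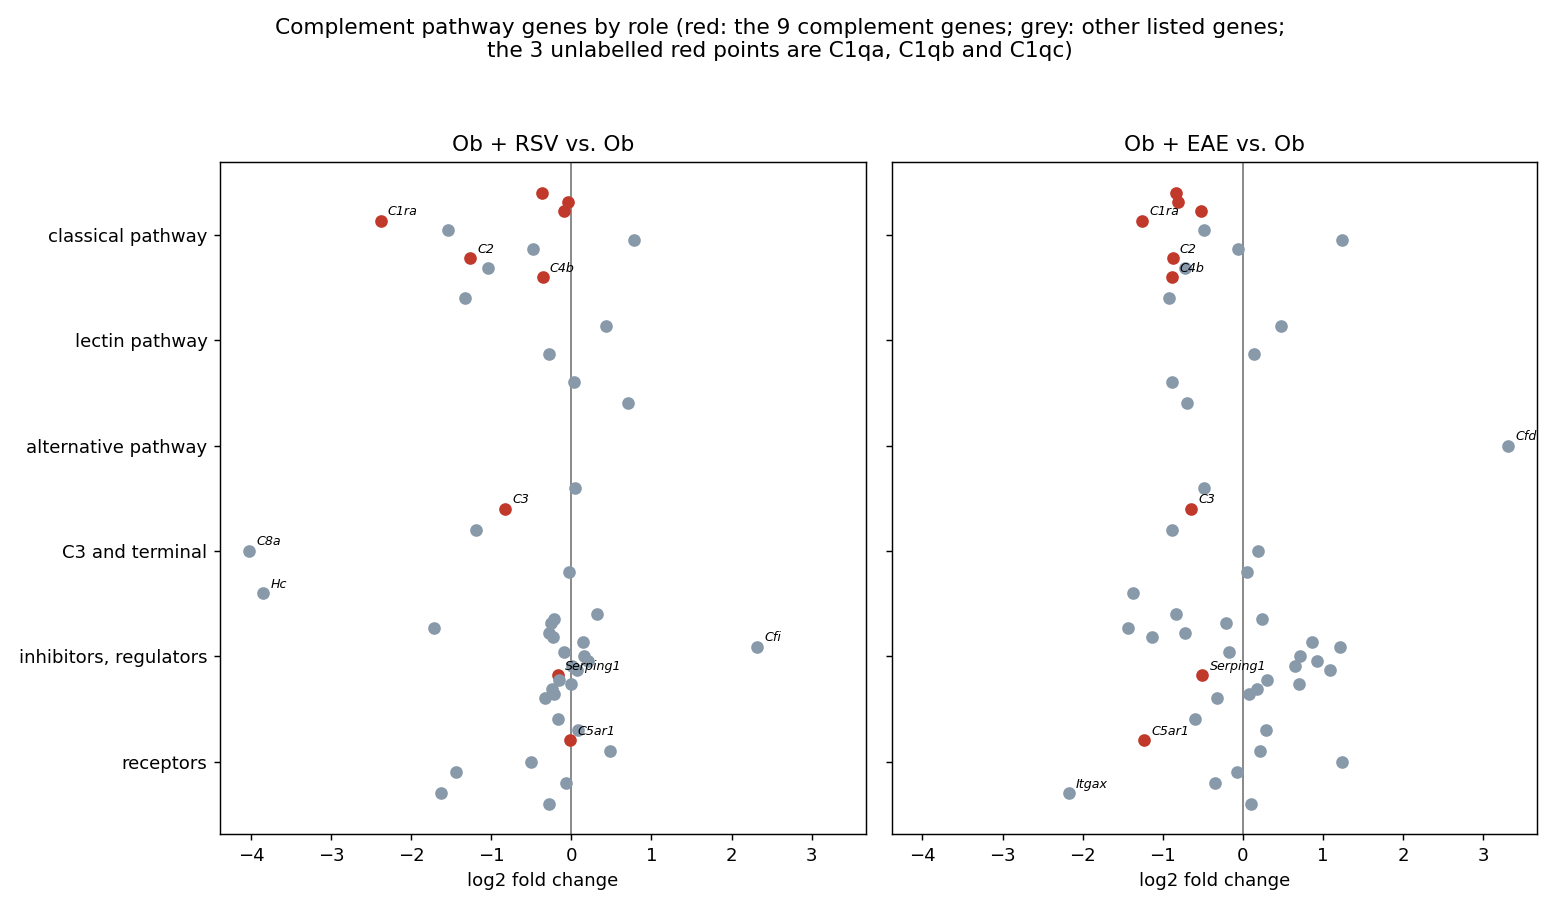
Log2FC (x axis) of the tested complement pathway genes by role (rows) in Ob + RSV vs. Ob (49 genes) and Ob + EAE vs. Ob (50 genes), with one point per gene and the 9 complement genes in red. Genes with 0 reads in a whole group are left out, and the 9 red points lie below 0 in both panels.

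Across the 12 libraries, the level of each complement gene was set beside the summed level of the microglial, perivascular macrophage, astrocyte and fibroblast markers. Of these 36 correlations, 0 passed at an adjusted p of 0.05 in a permutation test and 3 had an unadjusted p under 0.05. These were C1qb with perivascular macrophage markers (Pearson's r = −0.59, Spearman's rho = −0.58, permutation p = 0.0393, adjusted p = 0.538), C1ra with the same list (r = 0.68, rho = 0.57, permutation p = 0.0173, adjusted p = 0.538) and Serping1 with astrocyte markers (r = 0.57, rho = 0.57, permutation p = 0.0448, adjusted p = 0.538). Without the 2 libraries farthest from the median of the list, r was −0.28, 0.35 and 0.14. Leaving out the extremes also narrows the range of marker levels, so this drop cannot show whether the relations rested on those libraries. Without the 3 libraries with the fewest genes detected, r was −0.44, 0.24 and 0.61. With fewer libraries to permute, 0 of the 36 then had an unadjusted p under 0.05. In Ob + RSV replicate 2, 1 of these 3 libraries, C1ra had 0 reads, as did 6 of the 8 perivascular macrophage markers. With microglial markers, C1qa gave r = −0.29 (permutation p = 0.378, adjusted p = 0.849), which turned to 0.13 without the 2 farthest libraries. C1qb gave r = −0.52 with them (permutation p = 0.0770, adjusted p = 0.555) and −0.30 without those 2 libraries.

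Marker lists of other cell types were also read beside the complement genes in the comparisons of C, Ob and Ob + RSV, and no marker had an adjusted p under 0.05 in edgeR. Of the 14 microglial markers 5 were higher and 9 lower in Ob vs. C, and 9 were higher and 5 lower under RSV relative to Ob. Of the 10 astrocyte markers 4 and 7 were higher in these comparisons, and of the 8 perivascular macrophage markers 3 and 2. Meningeal and perivascular fibroblast markers were lower for 8 of 9 genes in Ob vs. C, with summed levels of 27.3 to 41.6 CPM in Ob and 31.3 to 77.1 CPM in C. Blood markers summed to 98.0 to 200.0 CPM in Ob and 96.3 to 207 CPM in C, and choroid plexus markers to 30.1 to 66.9 CPM in Ob and 44.4 to 83.3 CPM in C. Under RSV these 3 lists summed to 26.9 to 31.8 CPM (fibroblast), 62.0 to 194 CPM (blood) and 50.9 to 69.8 CPM (choroid plexus). Against C, 8 of the 9 fibroblast markers were lower under RSV, with a median log2FC of −1.14. Of these, 4 had an unadjusted p under 0.05 in edgeR, as did 2.87% of all genes. In the same comparison the log2FC was −0.99 for C3, −0.43 for Serping1 and 0.20 for C4b. The part of these levels in the complement values was not tested.

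Among 23824 expressed genes, those whose log2 CPM over the 12 libraries was most like a complement gene were ranked by Pearson's r, as a description without a test. C1qa was closest to Pde6d, Rpn1 and Phb2 (r of 0.96 for each), C1qb to Ddt (0.98), Oxld1 (0.97) and Gstm5 (0.97), and C1qc to Idh3g (0.97), Ube2cbp (0.97) and Samd14 (0.95). C1ra was closest to Marveld1, at 0.95 over 12 libraries and 0.94 without the 3 of fewest genes, followed by Ccdc122 (0.93) and A230005M16Rik (0.90). C2 was closest to Ltc4s (0.98), Gm16312 (0.98) and Cpxm1 (0.96), which fell to 0.87, 0.90 and 0.77 without the 3 libraries, and Ltc4s and Gm16312 were at 0 reads in Ob + RSV replicate 2 as C2 was. C4b was closest to Hapln2 (0.91), Ccnd3 (0.89) and Hhatl (0.88), C3 to Slc29a2 (0.88), Gm13561 (0.87) and Gm36120 (0.86), Serping1 to Zyx (0.91), Pde1b (0.89) and Rin2 (0.89), and C5ar1 to Gm5089 (0.87), Bin2 (0.84) and Cfap43 (0.84). The complement genes themselves were left out of this ranking, so it does not show how close they were to each other.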

How the data were processed

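Poly(A)-selected libraries from hypothalamus were sequenced as paired 150-base reads. The authors aligned them with HISAT2 and deposited raw gene-level counts from featureCounts, with GRCm39 named in the submitters' processing notes. Whether counting used strand is not given in the sources used here. Identifiers were paired with symbols from reference tables (65.7% of 78334 identifiers, holding 98.1% of reads). Genes with at least 10 reads in total were tested with edgeR (version 4.0.16, R 4.3.3; TMM scaling, quasi-likelihood test, Benjamini-Hochberg over all genes tested), with 9 libraries for C, Ob and Ob + RSV (33534 genes) and all 12 for Ob + EAE (36164 genes). CPM values are per 1000000 counted reads, and fold changes use TMM factors. Exon lengths come from GENCODE vM21 (GRCm38), another annotation than that of the counts. The fit was tested on simulated data. DESeq2 (version 1.42.0), RLE scaling, other filters, the replicate number as a block, the 12-library fit and leaving out libraries were the alternatives. The 9 genes and all lists were chosen with earlier results of these data known. Named besides them are copies of C1ra and C4b, per comparison up to 4 listed genes with the smallest unadjusted p, and the 3 genes most like each in Pearson's r, all 3 among genes passing filterByExpr. Markers and Gm20547 were named outside this rule. Correlation p-values used 100000 permutations. Intervals and limits for counts of 0 (3 reads) cover counting error only.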

Additional observations from a re-analysis of the deposited data

Results flagged for a closer look

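The Ob + CUR library, which enters no comparison, held levels above every C library for 2 of the 9 complement genes. C1ra stood there at 0.559 CPM (13 reads), against at most 0.383 CPM in C. Serping1 stood at 11.9 CPM, against at most 11.8 CPM in C, a difference smaller than the spread among the C libraries. The same library lay below every C library for C1qa, C1qb, C1qc, C2, C3 and C5ar1. C1qa, for one, stood at 26.1 CPM against at least 35.5 CPM in C. The share of all genes above or below every C library was not taken, and with a single library no value has a replicate check. In the same library astrocyte markers summed to 4525 CPM, above every other library, and hypothalamic neuron markers to 395 CPM, below every other library. Their part in these values was not tested.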

How the results depend on the processing

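Over 549 alternative values for the 45 log2FC values of the 9 complement genes, 511 kept the direction and 38 turned it, 28 of these with 1 library left out. Only C4b in Ob + EAE vs. Ob passed the call threshold, in 2 of its alternatives (with the replicate block and without Ob replicate 3), and the cause of these changes was not tested. Low counts limit C1ra and C5ar1 most.

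With RLE scaling C5ar1 in Ob + RSV vs. Ob was 0.00285. The number of genes called with filterByExpr was 77 in Ob + EAE vs. Ob and 1 in Ob + EAE vs. C, and DESeq2 called 30 in the latter. With genes kept from 1 read on, which adds genes of very few reads, 35 were called in Ob vs. C, 11 for Ob + RSV against Ob, 32 for Ob + RSV against C, 1031 in Ob + EAE vs. Ob and 133 in Ob + EAE vs. C. No complement gene was among them.

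Groups share replicate numbers, so each comparison was also fitted with the number as a block. Deviations of same-numbered libraries from their group means correlated at −0.03, 0.13 and 0.17 (Ob vs. C), 0.26, 0.01 and 0.33 (Ob + RSV vs. Ob) and 0.05, 0.06 and −0.01 (Ob + RSV vs. C) for numbers 1, 2 and 3, so not every pair was above 0.1 and the number was not taken to pair the libraries. Every one of the 6 libraries correlated best with its own number between Ob and Ob + RSV, as did 3 of 6 in each of the other 2 comparisons, a hint from the data and not from the design. With the replicate block 50, 10, 35, 1417 and 279 genes were called in the 5 comparisons in the order above. Of the complement genes 1 was called in Ob + EAE vs. Ob (C4b, log2FC −1.01, edgeR adjusted p = 0.000126), and C1qa, C1qb and C1qc had edgeR adjusted p of 0.000568, 0.000336 and 0.0452 with a log2FC short of 1 in size. C5ar1 turned to −0.13 in Ob vs. C and to −0.18 in Ob + RSV vs. C with the block.

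An alternative added after seeing the data left out the 3 libraries with the fewest genes detected. It turned C3 to 0.96 in Ob vs. C. It turned C1qb to 0.051 and Serping1 to 0.00175 in Ob + RSV vs. Ob. In Ob + RSV vs. C, C1qa turned to 0.20, C1ra to 0.25 and C5ar1 to −0.38. In Ob + EAE vs. C, C3 turned to 0.041. Genes called were then 1 in Ob + EAE vs. Ob and 0 in Ob + EAE vs. C.

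With 1 library left out at a time, genes called ranged from 0 to 11 in Ob vs. C (most without C replicate 3), 0 to 2 for Ob + RSV against Ob, 0 to 3 against C (both most without Ob + RSV replicate 1), 18 to 1172 in Ob + EAE vs. Ob (without Ob replicate 1 and without Ob replicate 3) and 1 to 9 in Ob + EAE vs. C (without C replicate 2 and without C replicate 3). Complement genes called in Ob + EAE vs. Ob ranged from 0 to 1. In Ob vs. C, C3 ranged from −0.77 to 0.69, Serping1 from −0.65 to 0.14 and C5ar1 from −0.32 to 0.33. In Ob + RSV vs. Ob, C1qb ranged from −0.25 to 0.19, C1qc from −0.31 to 0.080, C4b from −0.64 to 0.040, Serping1 from −0.52 to 0.23 and C5ar1 from −0.32 to 0.37. In Ob + RSV vs. C, C1qa ranged from −0.44 to 0.12, C1qc from −0.074 to 0.31, C1ra from −0.80 to 0.46, C4b from −0.046 to 0.49 and C5ar1 from −0.26 to 0.40. In Ob + EAE vs. Ob, C3 ranged from −0.88 to 8.57e-05, and in Ob + EAE vs. C, C2 from −0.78 to 0.083 and C3 from −1.19 to 0.049. Where 1 library of Ob + EAE was left, it was assumed to vary like the other groups.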
